A study of Mus musculus with 46 samples.

Results

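Imeglimin and metformin were compared in the colon of male C57BL/6J mice 6 h after each drug had been given by mouth at 600 mg/kg. The comparison holds 6 of the 46 samples of the series, imeglimin libraries 1 to 3 and metformin libraries 1 to 3 of the acute colon experiment, chosen by the names of their columns. The 3 acute colon libraries labelled Control had no drug named and entered the same fit, and 9 colon libraries of the 4-week experiment (control, and imeglimin or metformin at 3 mg/mL in the drinking water, 3 each) were used to ask whether the difference between the drugs changed with exposure. The age of the mice, the vehicle of the controls and whether each library is a separate animal are not stated in the labels used here, and the p-values then speak only for differences between libraries, which may be technical.

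Metformin is a biguanide that lowers blood glucose in type 2 diabetes, reaches high levels in the gut wall after oral dosing and inhibits complex I of the mitochondrial respiratory chain. Imeglimin is a tetrahydrotriazine related to it in structure that is also used in type 2 diabetes and is also known for actions on mitochondria. Cells under mitochondrial or nutrient stress switch on the integrated stress response, whose factor ATF4 induces amino acid genes and the hormone GDF15, while ligands of the epidermal growth factor (EGF) receptor signal through the kinase ERK to immediate early genes and to the phosphatases that end the signal. The comparison is of 1 pair of related compounds at a matched dose and time.

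Bulk RNA-seq gave 31606797 to 38795175 counts per acute colon library, of which 7.36% to 9.99% came from mitochondrially encoded genes. Markers of colon were high, with Car1, a carbonic anhydrase of colonocytes, at 8140 to 13400 CPM (counts scaled to a common library total) and Muc2, the mucin of goblet cells, at 9730 to 16500 CPM in the 6 drug libraries. Metformin 2 stood apart, as its 19 smooth muscle markers summed to 2537 CPM against 6162 to 9688 CPM in the other 5 drug libraries. It was also the lowest of the 6 for enteric neurons and glia (82.7 CPM against 152 to 193.5 CPM), fibroblasts (1710 CPM against 2071 to 2528 CPM) and adipocytes (181 CPM against 243 to 411 CPM). In whole tissue, fewer cells of a type and less RNA per cell cannot be told apart. Of 17 lists of cell type markers, the absorptive colonocyte list had 1 of 16 members that passed the edgeR test between the drugs (Emp1, lower with imeglimin), with 2 higher and 5 lower at an unadjusted p under 0.05 and 4 called by DESeq2, all lower. The other 16 had 0 of 190 members, with 5 higher and 12 lower at an unadjusted p under 0.05 and 3 called by DESeq2. Over all 18294 genes tested, 8.22% were higher and 8.23% lower at that p. DESeq2 called 733 genes in all, 431 higher and 302 lower, from the same 18294 before its own filter. Every list count here and below is to be read beside these.

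The drugs differed in 118 of 18294 genes tested, or 0.645% (edgeR quasi-likelihood test, Benjamini-Hochberg adjusted p under 0.05 over all genes). Of these, 87 were higher with imeglimin (0.476% of genes) and 31 were lower (0.169%), with a median log2 difference of 0.93 and -0.73. In all 118 the 3 imeglimin libraries lay on 1 side of the 3 metformin libraries, which also held for 20.5% of all genes tested. Against control, 6085 genes passed with imeglimin (33.3%) and 3607 with metformin (19.7%), over the same 3 control libraries. For 66 of the 87 higher genes the control mean lay below both drug means, for 19 it lay between them and for 2 above both. For the 31 lower genes it lay above both drug means in 16, between them in 8 and below both in 7. The plot of differences by level shows both sets.

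**Figure D1:**
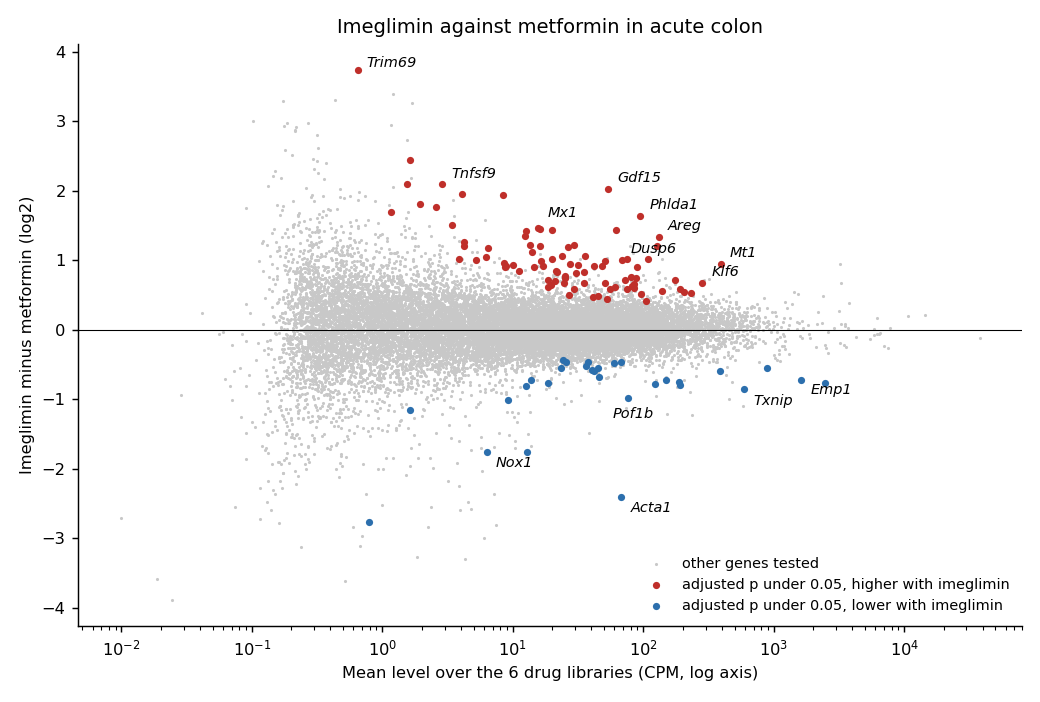
Each point is a gene, with its mean level over the 6 drug libraries (CPM, log axis) against its log2 difference, imeglimin minus metformin; coloured points had an edgeR adjusted p under 0.05. Gdf15, Phlda1 and Areg stand out among the 87 higher genes and Acta1 and Nox1 among the 31 lower ones. Of the genes tested, 15 with a difference beyond 4.2 are not drawn, of which 1 (Ighv14-2, an immunoglobulin segment at 0 CPM in every imeglimin library) passed.

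These calls rest on few libraries. Leaving out imeglimin 1, 2 or 3 gave 11, 0 and 9 genes, of which 8, 0 and 9 were among the 118. Leaving out metformin 1, 2 or 3 gave 152, 156 and 11, of which 67, 79 and 10 were among the 118. Leaving out control 1, 2 or 3, which enter through the shared spread, gave 69, 38 and 72, with 65, 34 and 64 among the 118. Without imeglimin 2 the adjusted p of the 118 genes lay between 0.0537 and 0.209. All 118 kept their sign under every setting tried. Their groups did not overlap, which all but fixes the sign in advance, so this is no further support. A fit with the labels' batch tag as a further term, below called the blocked fit, left 19 genes, 16 of them among the 118. Its adjusted p is printed beside each gene whose call it ended. At the other end, 13619 genes (74.4%) had a 95% interval that stayed within 1 log2 unit of 0.

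Gdf15 and the EGF receptor ligand Areg were higher with imeglimin. Gdf15, a stress hormone that acts on the hindbrain to lower food intake, was at 71.0, 106 and 81.0 CPM in the imeglimin libraries and at 22.4, 26.4 and 14.6 CPM in the metformin libraries, against 0.485 to 1.11 CPM in control. Every imeglimin library held more Gdf15 than any metformin library, a log2 difference of 2.02 ± 0.23 (SE, 95% interval 1.51 to 2.54, edgeR adjusted p = 0.00979). Areg, the EGF receptor ligand amphiregulin, was at 147, 219 and 203 CPM with imeglimin and at 72.2, 91.5 and 61.7 CPM with metformin, against 2.92 to 5.8 CPM in control. Its groups did not overlap either, with a difference of 1.34 ± 0.22 (edgeR adjusted p = 0.0344, blocked 0.0701). The other ligands were less far apart: Ereg (epiregulin) differed by 0.57 (0.034 to 1.12, edgeR adjusted p = 0.279) and Hbegf by 0.77 (0.26 to 1.28, adjusted p = 0.156). Of 15 tested members of the EGF receptor list, Areg alone passed, while 6 were higher and 1 lower at an unadjusted p under 0.05, which 8.22% and 8.23% of all genes reached. DESeq2 called 2, both higher. The list's median was -0.062 (-0.12 without metformin 1 to 0.044 without metformin 2), against 0.017 over all genes tested.

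Dusp6, Dusp8, Spry2 and Trib1 were higher with imeglimin as well. Dusp6, a phosphatase that inactivates ERK, was at 93.0, 80.5 and 102 CPM with imeglimin, at 42.3, 43.5 and 51.3 CPM with metformin and at 25.0 to 32.2 CPM in control. The difference of 1.00 ± 0.13 left no overlap (edgeR adjusted p = 0.0156). Dusp8, a phosphatase of the stress kinases, differed by 1.06 ± 0.19 (adjusted p = 0.0426, blocked 0.0971) and Spry2, a Sprouty inhibitor of receptor signalling, by 0.91 ± 0.15 (adjusted p = 0.0344, blocked 0.0787). These were the 3 of 16 members of the phosphatase and Sprouty list that passed, all higher. At an unadjusted p under 0.05, 7 were higher and 0 lower, against 8.22% and 8.23% of all genes. DESeq2 called 4, all higher, and the median was 0.30 (0.20 without imeglimin 2 to 0.38 without metformin 2). Trib1, a pseudokinase of the Tribbles family, differed by 0.89 ± 0.10 (adjusted p = 0.00979).

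Phlda1, a pleckstrin homology gene induced by growth factors, reached 123, 165 and 140 CPM with imeglimin against 48.3, 45.7 and 44.3 CPM with metformin and 10.2 to 28.2 CPM in control. Its difference was 1.63 ± 0.28 (edgeR adjusted p = 0.0374, blocked 0.0675). Among immediate early genes, which are transcribed within minutes of a signal, Klf6 passed with 0.67 ± 0.12 (edgeR adjusted p = 0.0375, blocked 0.0971). Of the 26 tested, 13 were higher and 0 lower at an unadjusted p under 0.05, against 8.22% and 8.23% of all genes. DESeq2 called 5, all higher, and the median was 0.35 (0.31 to 0.40 with 1 library left out). The classical members Fos and Egr1 differed by 1.1 (0.27 to 1.93) and 1.2 (0.36 to 2.04) with wide spread, at an edgeR adjusted p of 0.194 and 0.174, and Ier2 by 0.64 at 0.0541. Without imeglimin 2, the adjusted p of the 8 genes of this and the preceding paragraphs that passed (Gdf15, Areg, Phlda1, Dusp6, Dusp8, Spry2, Trib1 and Klf6) lay between 0.0537 and 0.191. Gdf15 and Trib1 still passed without imeglimin 1 and without imeglimin 3, and with Dusp6 without metformin 3. Without metformin 1, 4 of the 8 passed, without metformin 2, 7, and without control 1, 2 or 3, 8, 5 and 7.

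**Figure D2:**
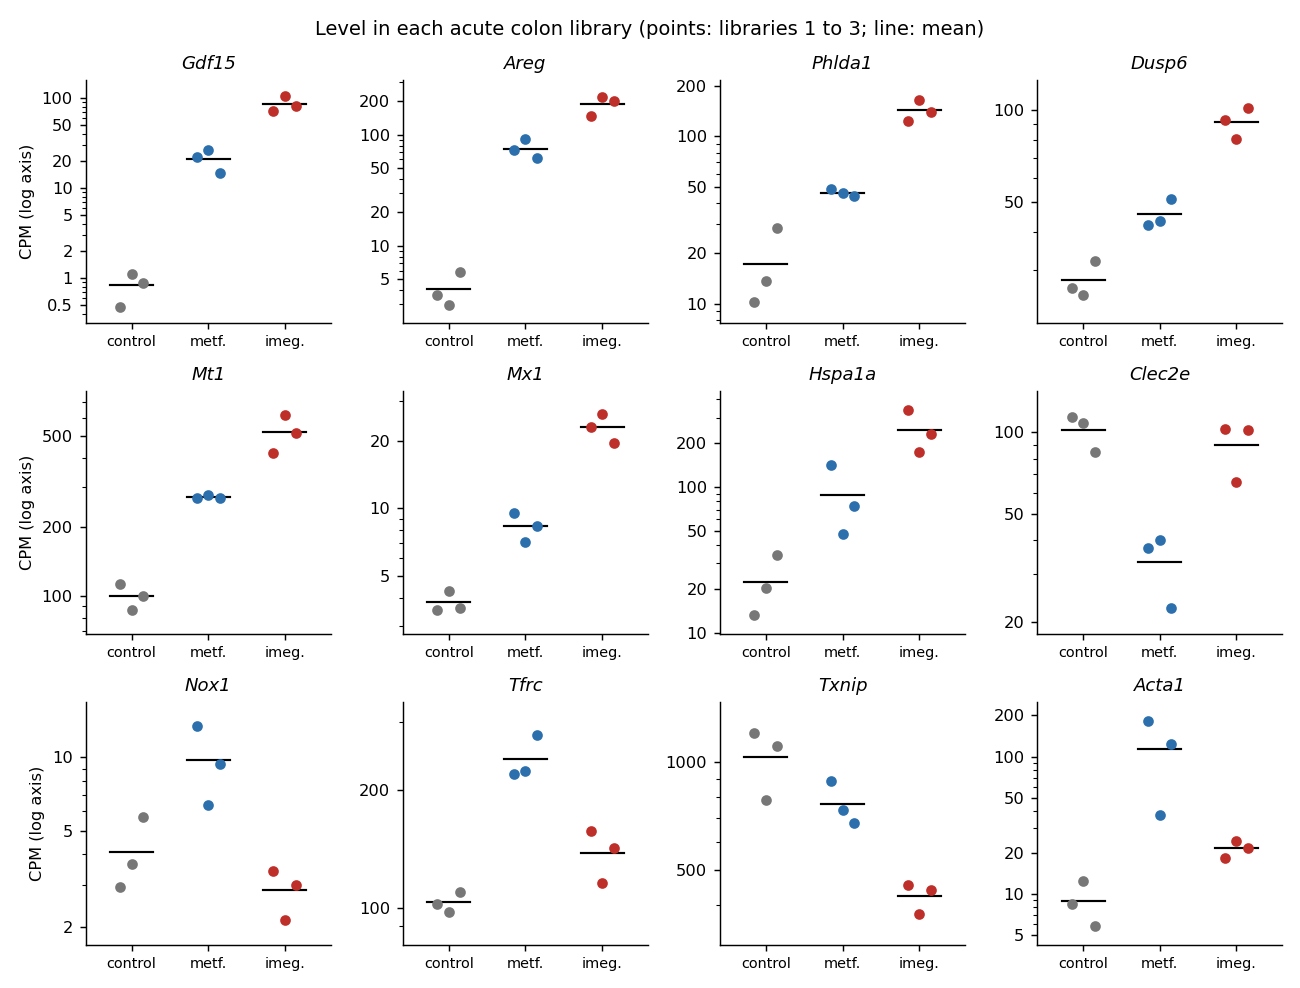
Level of 12 genes in each acute colon library (CPM, log axis), with points for libraries 1 to 3 of control, metformin and imeglimin and a line at each mean. Gdf15, Areg, Phlda1, Dusp6, Mt1 and Mx1 step up from control through metformin to imeglimin, whereas Clec2e is low, and Nox1, Tfrc and Acta1 are high, in the metformin libraries.

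The promoters of Areg and Dusp8 are printed because they are the only 2 of 80 promoter windows of the higher genes that hold the full cyclic AMP response element TGACGTCA, and those of Mt1 and Mt2 because metal response elements are textbook features of metallothionein promoters. The sequences are the 250 bases before the start in RefSeq, assembly GRCm38.p6, 5′ to 3′ on the gene's strand, at chr5:91139349-91139598 (plus strand), chr7:142095285-142095534 (minus strand), chr8:94178839-94179088 (plus strand) and chr8:94172368-94172617 (plus strand). Capitals mark the matched letters of the motifs named next to the counts that follow them.
Areg: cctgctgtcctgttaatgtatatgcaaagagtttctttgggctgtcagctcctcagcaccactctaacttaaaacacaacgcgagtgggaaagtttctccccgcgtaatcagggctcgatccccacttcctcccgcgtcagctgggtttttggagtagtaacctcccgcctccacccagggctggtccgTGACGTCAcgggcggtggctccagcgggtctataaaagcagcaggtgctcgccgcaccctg
Dusp8: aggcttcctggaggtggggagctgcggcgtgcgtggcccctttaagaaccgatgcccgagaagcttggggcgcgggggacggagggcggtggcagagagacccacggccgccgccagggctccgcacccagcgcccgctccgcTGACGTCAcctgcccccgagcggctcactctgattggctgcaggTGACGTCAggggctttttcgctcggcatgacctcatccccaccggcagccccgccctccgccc
Mt1: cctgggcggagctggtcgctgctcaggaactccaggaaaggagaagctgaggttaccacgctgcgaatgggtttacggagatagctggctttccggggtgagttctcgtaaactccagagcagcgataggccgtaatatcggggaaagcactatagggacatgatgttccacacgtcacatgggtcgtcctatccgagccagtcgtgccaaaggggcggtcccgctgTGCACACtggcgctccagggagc
Mt2: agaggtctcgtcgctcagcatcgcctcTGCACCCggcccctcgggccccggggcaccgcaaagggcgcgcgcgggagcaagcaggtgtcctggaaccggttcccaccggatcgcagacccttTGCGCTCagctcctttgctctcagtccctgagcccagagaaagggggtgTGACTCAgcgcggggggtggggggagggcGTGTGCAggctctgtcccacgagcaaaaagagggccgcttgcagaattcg

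In these letters the Areg promoter holds TGACGTCA 61 bases before the start, and the Dusp8 promoter holds it 107 and 63 bases before the start. The 250 printed bases of Mt1 hold 1 match to TGCACNC or TGCGCNC, the core of the metal response element, 23 bases before the start. Those of Mt2 hold 3 such matches, 223, 128 and 50 bases before the start (the last on the other strand), and 1 AP-1 site, TGANTCA, at 79 bases. Sites beyond the printed bases, such as after the RefSeq start used, are not listed, so these are not totals for a promoter. Of the 87 higher genes 63 had a RefSeq window of 300 bases (250 before to 50 after the start), as did 25 of the 31 lower genes. Searched on both strands, TGACGTCA stood in 2 of 80 windows of higher genes (2.50%) and in 1.79% of all 32851 windows. The metal response core stood in 26.2% of windows of higher genes and 25.7% of all, TGANTCA in 7.50% and 7.81%, and the core of the interferon response element, GAAANNGAA, in 8.75% and 8.56%. The amino acid response core TGATGNAA stood in 6 windows of higher genes (7.50%, against 3.97% of all), and the serum response (CArG) motif in 2 (2.50%, against 1.63%). A match is a description of the letters only.

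In the integrated stress response list, Gdf15 alone of 25 tested members passed, while 8 were higher and 2 lower at an unadjusted p under 0.05 and DESeq2 called 3 higher and 1 lower. The median was 0.17, and it ran from -0.011 without imeglimin 2 to 0.31 without imeglimin 1. Chac1, which breaks down glutathione, was at 42.5 ± 12.6 CPM with imeglimin and 31.6 ± 5.63 CPM with metformin (SD, n = 3), against 0.943 ± 0.225 CPM in control. That difference was 0.43, with an interval of -0.043 to 0.90. Atf4, the factor of the response, differed by 0.40 (0.097 to 0.70, edgeR adjusted p = 0.198). Trib3, an ATF4 target, differed by 0.68 (-0.18 to 1.54, adjusted p = 0.406), and the value rested on imeglimin 2 at 46.5 CPM, since the other imeglimin libraries held 13.8 and 18.6 CPM and the metformin libraries 14.9 to 18.6 CPM. Nupr1, a stress-induced nuclear protein, went the other way at -0.75 (-1.14 to -0.37, adjusted p = 0.0858). Slc3a2, the heavy chain shared by several amino acid exchangers, was higher by 0.71 ± 0.14 (adjusted p = 0.0488, blocked 0.1) and was the only one of 23 amino acid transporter genes to pass. Cytosolic aminoacyl-tRNA synthetases had 0 of 20 called by edgeR or DESeq2, with 0 higher and 6 lower at an unadjusted p under 0.05. Their median was -0.099 (-0.20 to -0.038 with 1 drug library left out). Serine, folate, asparagine and proline synthesis had 0 of 18 called by either, with 1 higher and 4 lower at that p. Here the median was -0.071 (-0.19 to 0.0028).

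The co-chaperones Stip1 and Dnaja1 were higher with imeglimin. Stip1, the adaptor between HSP70 and HSP90, was at 165 ± 11.7 CPM with imeglimin and 112 ± 8.04 CPM with metformin (0.56 ± 0.10, edgeR adjusted p = 0.0344, blocked 0.0971), and Dnaja1, an HSP70 co-chaperone, differed by 0.53 ± 0.10 (adjusted p = 0.0488, blocked 0.0701). They were the 2 of 25 heat shock genes that passed by edgeR, against 10 by DESeq2, all higher. Over all genes edgeR called 87 higher and DESeq2 431. At an unadjusted p under 0.05 13 were higher and 0 lower, against 8.22% and 8.23% of all genes. The list's median was 0.31 (0.28 to 0.43 with 1 library left out). The inducible Hspa1a was at 339, 175 and 230 CPM with imeglimin and at 142, 47.8 and 74.5 CPM with metformin, against 13.3 to 33.9 CPM in control. Its groups did not overlap, yet the spread left 1.49 (0.60 to 2.38) at an adjusted p of 0.131, and its reads may be shared with the near-identical Hspa1b. Hspa8, the constitutive family member, differed by 0.49 (0.26 to 0.72, adjusted p = 0.0684). Without imeglimin 2, Slc3a2, Stip1 and Dnaja1 had an adjusted p of 0.169 to 0.204, and none passed without imeglimin 1, imeglimin 3 or metformin 3. Without metformin 1 only Stip1 passed, and without metformin 2 only Slc3a2. Stip1 alone passed without control 1, and none without control 2 or 3.

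**Figure D3:**
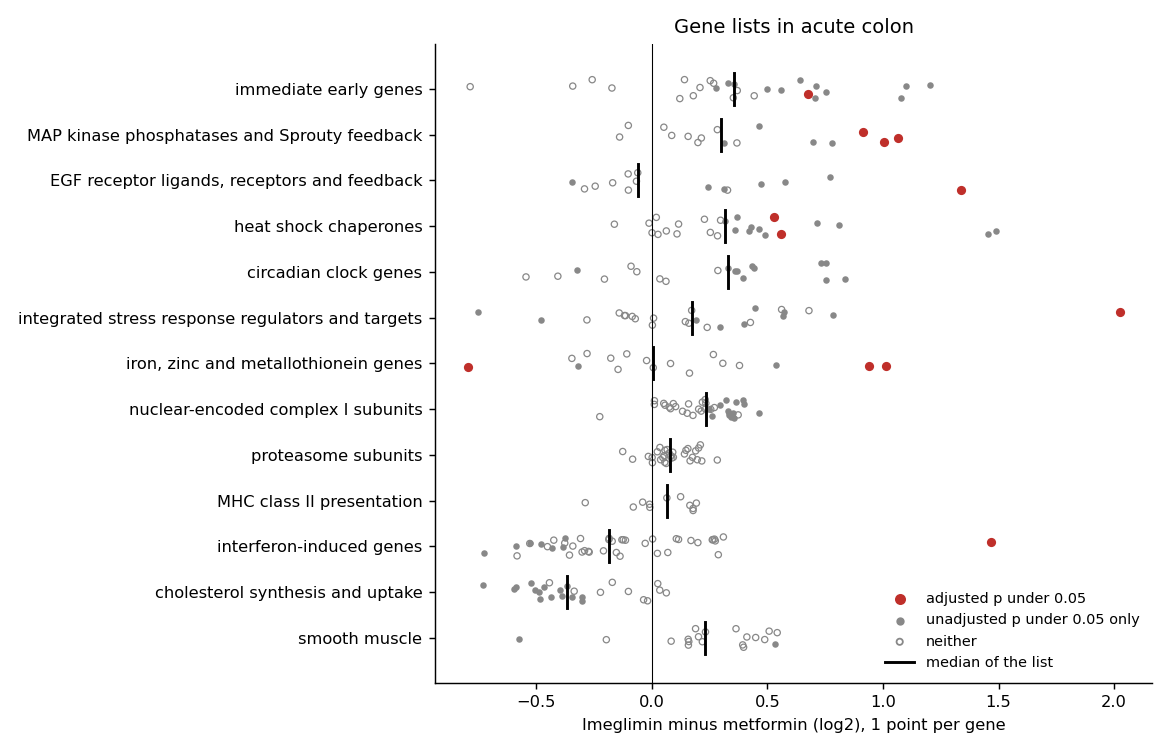
Each point is a tested member of a gene list, placed by its log2 difference, imeglimin minus metformin, with a line at the list's median; red points had an edgeR adjusted p under 0.05, filled grey points only an unadjusted p under 0.05 and open points neither. Immediate early, phosphatase and heat shock genes lie mostly to the right of 0, cholesterol genes to the left, and proteasome and MHC class II genes close to 0.

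Mt1 and Mt2 were higher and Tfrc was lower with imeglimin. Mt1, a metallothionein that binds zinc and copper, was at 421, 620 and 513 CPM with imeglimin, at 267, 275 and 268 CPM with metformin and at 86.7 to 113 CPM in control. Mt2, its neighbour in the genome and close relative, differed by 1.01 ± 0.20 (edgeR adjusted p = 0.0495, blocked 0.112), next to 0.94 ± 0.14 for Mt1 (adjusted p = 0.0237, blocked 0.0675). Tfrc, the transferrin receptor through which cells import iron, was lower with imeglimin, at 157, 116 and 142 CPM against 220, 224 and 278 CPM with metformin. In control it was at 97.4 to 110 CPM. That difference was -0.80 ± 0.13 (adjusted p = 0.0315, blocked 0.0515), and against control Tfrc was higher by 1.22 with metformin (adjusted p = 0.000209) and by 0.42 with imeglimin (adjusted p = 0.0258). These were the 3 of 17 genes on the metal list that passed by edgeR, as did 2 higher and 1 lower by DESeq2, and the list's median was 0.0056. Mt1 also passed without imeglimin 1, and Mt1 and Tfrc without metformin 1 or metformin 2. None of the 3 passed without imeglimin 2 (0.0969 to 0.204), imeglimin 3 (0.106 to 0.143) or metformin 3 (0.111 to 0.146). Without control 1, 2 or 3, 1, 2 and 2 of the 3 passed.

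Mx1 was the only gene of the interferon-induced list to pass by edgeR, while DESeq2 called 3 of the list, 1 higher and 2 lower. This antiviral GTPase was at 23.1, 26.3 and 19.6 CPM with imeglimin, at 9.52, 7.06 and 8.34 CPM with metformin and at 3.51 to 4.30 CPM in control. The difference was 1.47 ± 0.16 (edgeR adjusted p = 0.0097), and against control Mx1 was higher by 2.6 with imeglimin (adjusted p = 6.24e-06) and by 1.13 with metformin (adjusted p = 0.00104). Of the 43 tested genes of the list, 1 was higher (Mx1) and 7 were lower at an unadjusted p under 0.05, with a median of -0.19 (-0.24 without imeglimin 2 to -0.10 without metformin 2). Off the list, Parp12, an interferon-induced ADP-ribosyltransferase, was lower by -0.69 ± 0.13 (adjusted p = 0.0433, blocked 0.0971), at 35 ± 2.15 CPM with imeglimin, 56.4 ± 10.1 CPM with metformin and 82.3 ± 4.19 CPM in control. Ifnlr1, the receptor of lambda interferons, was higher by 0.71 ± 0.13 (adjusted p = 0.0449, blocked 0.0971). Mx1 passed without any single library other than imeglimin 2, where its adjusted p was 0.0537, while Ifnlr1 passed only without control 1 and Parp12 only without metformin 1. Over the 9 libraries left out the adjusted p of both ranged up to 0.211.

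Of the p53 targets and of the cell death genes, 1 higher and 1 lower passed in each list. Mdm2, the ubiquitin ligase that is both target and inhibitor of p53, was higher by 0.76 ± 0.14 (edgeR adjusted p = 0.0449, blocked 0.1), while Trp53inp1, another p53 target, was lower by -0.56 ± 0.11 (adjusted p = 0.0450, blocked 0.108). In the list of 19 p53 targets these were the only ones to pass by edgeR, and DESeq2 called 3 higher and 2 lower. Of 20 cell death genes DESeq2 called 1 higher and 2 lower. Bcl2l1, the higher one, encodes the survival protein BCL-XL and was at 78.4, 92.3 and 96.9 CPM with imeglimin and at 53.7, 56.5 and 53.2 CPM with metformin, against 41.7 to 49.3 CPM in control. Its groups were well apart (0.71 ± 0.10, adjusted p = 0.0237, blocked 0.0701). Casp4, the lower one, an inflammatory caspase that senses bacterial lipopolysaccharide inside cells, was at 9.08, 8.95 and 9.65 CPM with imeglimin, at 15.4, 13.8 and 19.2 CPM with metformin and at 16.6 to 18.9 CPM in control, so that here the metformin libraries were near control (-0.81 ± 0.13, adjusted p = 0.0344, blocked 0.0701). None of the 4 passed without imeglimin 2 (0.129 to 0.201), imeglimin 3 (0.121 to 0.165) or metformin 3 (0.111 to 0.167), and Bcl2l1 alone passed without imeglimin 1. Mdm2, Bcl2l1 and Casp4 passed without metformin 1, and Bcl2l1 and Casp4 without metformin 2. Without control 1, 2 or 3, 2, 1 and 1 of the 4 passed.

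In another set of 8 genes metformin differed from control and from imeglimin. Nox1, the catalytic subunit of the colon's NADPH oxidase, was at 13.4, 6.38 and 9.38 CPM with metformin, at 3.42, 2.14 and 3.00 CPM with imeglimin and at 2.94 to 5.70 CPM in control. It was lower with imeglimin by -1.77 ± 0.32 (edgeR adjusted p = 0.0414, blocked 0.0641). Against control Nox1 was higher by 1.24 with metformin (adjusted p = 0.0171) and differed by -0.52 with imeglimin (adjusted p = 0.229). Noxa1, the activator subunit of the same enzyme, was also lower with imeglimin than with metformin, by -0.59 ± 0.11 (adjusted p = 0.0414, blocked 0.106), but there imeglimin was the drug that left control (-0.49, adjusted p = 0.00493, against 0.099 and 0.535 for metformin). Emp1, an epithelial membrane protein, was at 1900, 2220 and 1930 CPM with metformin and at 992, 1300 and 1380 CPM with imeglimin, against 1110 to 1180 CPM in control. Those groups did not overlap (-0.72 ± 0.13, adjusted p = 0.0375, blocked 0.0675), and against control the differences were 0.81 for metformin (adjusted p = 0.00153) and 0.091 for imeglimin (adjusted p = 0.616).

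Clca3b, of the chloride channel accessory family, and Actn4, an actin crosslinker, were higher with metformin too. Clca3b was at 234 ± 30.5 CPM with metformin, 139 ± 7.09 CPM with imeglimin and 147 ± 11.8 CPM in control (-0.76 ± 0.11 between the drugs, edgeR adjusted p = 0.0237, blocked 0.0567). Actn4 was at 1052 ± 64.9 CPM with metformin, 714 ± 17.5 CPM with imeglimin and 570 ± 26.9 CPM in control (-0.56 ± 0.09, adjusted p = 0.0296, blocked 0.0785). Against control, Clca3b differed by 0.68 with metformin (adjusted p = 0.00188) and -0.078 with imeglimin (0.618), and Actn4 by 0.88 (0.000146) and 0.32 (0.0155). Lower with metformin were Clec2e, a C-type lectin, Vstm5, a membrane protein of the immunoglobulin family, and Gramd1b, a carrier of cholesterol to the endoplasmic reticulum. Clec2e was at 37.5, 40.1 and 22.6 CPM with metformin, at 103, 65.7 and 102 CPM with imeglimin and at 84.3 to 114 CPM in control, a difference between the drugs of 1.43 ± 0.23 (adjusted p = 0.0302, blocked 0.0567). Against control Clec2e differed by -1.61 with metformin (adjusted p = 0.000899) and by -0.18 with imeglimin (adjusted p = 0.567). Vstm5 differed between the drugs by 1.45 ± 0.27 (adjusted p = 0.0449, blocked 0.0971) and Gramd1b by 0.94 ± 0.13 (adjusted p = 0.0237, blocked 0.0641). Against control with metformin they differed by -1.08 (adjusted p = 0.0182) and -0.80 (0.0023), and with imeglimin by 0.37 (0.31) and 0.14 (0.45).

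Acta1, skeletal muscle actin, had the largest difference among the lower genes of at least 5 CPM in a drug group. It was at 183, 37.5 and 123 CPM with metformin, at 18.3, 24.5 and 21.6 CPM with imeglimin and at 5.82 to 12.4 CPM in control (-2.42 ± 0.46, edgeR adjusted p = 0.0449, blocked 0.118). Against control, Acta1 was higher by 3.69 with metformin (adjusted p = 0.000646), and with imeglimin the 1.28 did not pass (0.0529). The lowest of its metformin values came from metformin 2, the library low in smooth muscle markers. The summed smooth muscle markers of the imeglimin libraries (6515 to 9688 CPM) overlapped those of metformin 1 and 3. Without metformin 2 the difference in Acta1 was -2.83 (edgeR adjusted p = 0.00317). Whether the amount of muscle in the samples bears on the Acta1 difference was not tested. Of the 9 genes in which this and the preceding 2 paragraphs found a difference between the drugs, 0 passed without imeglimin 1, imeglimin 2, imeglimin 3 or metformin 3, where the adjusted p lay between 0.0537 and 0.210. Without metformin 1, 5 of the 9 passed, without metformin 2, 8, and without control 1, 2 or 3, 5, 2 and 5.

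Slc5a8, Cobl, Pof1b and Txnip, placed together here from the genes that passed, were lower with imeglimin. The list of colonic salt, water and bicarbonate transport had 0 of 26 members called by edgeR and 2 lower by DESeq2, with 2 higher and 5 lower at an unadjusted p under 0.05. The absorptive colonocyte list had 1 of 16 called by edgeR and 4 by DESeq2, all lower. Slc5a8, which takes up butyrate and other short-chain fatty acids, was at 112 ± 6.22 CPM with imeglimin and 186 ± 35 CPM with metformin, against 157 ± 9.79 CPM in control (-0.73 ± 0.13, edgeR adjusted p = 0.0402, blocked 0.0940). Slc26a3, the chloride and bicarbonate exchanger, was at 167, 137 and 173 CPM with imeglimin and 281, 217 and 392 CPM with metformin, and this -0.90 (-1.34 to -0.46) had an adjusted p of 0.0758 and passed in the blocked fit (0.0485). Cobl, an actin nucleator of the microvilli, and Pof1b, an actin-binding protein of cell junctions, were lower by -0.60 ± 0.10 (adjusted p = 0.0344, blocked 0.0971) and -0.99 ± 0.17 (adjusted p = 0.0344). Txnip, which restrains glucose uptake, was at 454, 377 and 440 CPM with imeglimin, at 886, 736 and 677 CPM with metformin and at 785 to 1210 CPM in control (-0.86 ± 0.16, adjusted p = 0.0449, blocked 0.0567). Against control, Txnip was lower by -1.29 with imeglimin (adjusted p = 0.000280), and with metformin the -0.43 did not pass (adjusted p = 0.0797). Hexokinase 2 (Hk2) and the glucose transporter Slc2a1 did not differ by the test between the drugs, at 0.34 (0.029 to 0.65) and -0.13 (-0.46 to 0.20).

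ND5, a complex I subunit encoded by mitochondrial DNA, was at 1827 ± 164 CPM with imeglimin and 3121 ± 271 CPM with metformin, against 4428 ± 901 CPM in control (-0.77 ± 0.14, edgeR adjusted p = 0.0446, blocked 0.102). It was the only one of 13 mitochondrially encoded genes to pass by edgeR, and DESeq2 called 2, both lower. ND6, which overlaps the end of ND5 on the other strand, differed by -0.61 (-1.0 to -0.22, adjusted p = 0.147). Without a stated strand setting, reads from the stretch where the 2 genes overlap cannot be told apart. The nuclear-encoded complex I list had 0 of 36 members called by edgeR and 1 by DESeq2. At an unadjusted p under 0.05, 14 were higher and 0 lower, against 8.22% and 8.23% of all genes. Its median was 0.23 (0.16 without imeglimin 2 to 0.34 without imeglimin 1). All 36 intervals stayed within 1 log2 unit. Nuclear-encoded subunits of complexes II to V had 0 of 37 called by edgeR and 1 by DESeq2. In that list 11 were higher and 0 lower at an unadjusted p under 0.05. Their median was 0.22 (0.13 to 0.33 with 1 drug library left out), so the pattern was not particular to complex I. Acad9, a complex I assembly factor, was lower by -0.52 ± 0.09 (adjusted p = 0.0344, blocked 0.0950). Acot2, a mitochondrial acyl-CoA thioesterase, was higher by 1.21 ± 0.23 (adjusted p = 0.0449, blocked 0.104), as were Upp1, uridine phosphorylase, by 0.93 ± 0.10 (adjusted p = 0.0097) and Aoc2, a copper amine oxidase, by 1.35 ± 0.19 (adjusted p = 0.0237, blocked 0.0567). Over the 9 genes of this and the preceding paragraph that passed, 0 remained called without imeglimin 2 (0.0537 to 0.209), Upp1 without imeglimin 1 or metformin 3, and Upp1 and Aoc2 without imeglimin 3. Without metformin 1, 7 of the 9 passed, without metformin 2, 5, and without control 1, 2 or 3, 5, 3 and 4.

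Other higher genes had no list in common. Col11a2, a fibrillar collagen chain, differed by 1.95 ± 0.29 (edgeR adjusted p = 0.0237, blocked 0.0641), C2cd4b, a nuclear factor linked to inflammation, by 1.42 ± 0.18 (adjusted p = 0.0170), Tnnt2, cardiac troponin T, by 1.25 ± 0.21 (adjusted p = 0.0344, blocked 0.0910) and Fgf11, an intracellular fibroblast growth factor, by 1.11 ± 0.15 (adjusted p = 0.0214). Of these low genes Col11a2 was at 6.51 ± 2.10 and 1.68 ± 0.203 CPM with imeglimin and metformin, and Fgf11 at 19.1 ± 2.65 and 8.86 ± 1.19 CPM. Without imeglimin 2 the 4 had an adjusted p of 0.0572 to 0.155, and 0 passed without imeglimin 1. Col11a2 passed without imeglimin 3 and C2cd4b without metformin 3. Without metformin 1, 2 or 3, 3, 4 and 1 of them passed, and without control 1, 2 or 3, 3, 3 and 4.

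In 4 further lists 0 members passed the edgeR test. Genes of cholesterol synthesis and uptake had 0 of 25 called by edgeR and 8 lower by DESeq2. At an unadjusted p under 0.05, 15 were lower and 0 higher, against 8.23% and 8.22% of all genes. The list's median was -0.37, and it ran from -0.46 without metformin 2 to -0.21 without metformin 1. Against control the list's median was -0.039 with imeglimin (1 called higher, 2 lower) and 0.31 with metformin (6 higher, 2 lower). Insig1, which retains the sterol sensor in the endoplasmic reticulum, differed by -0.73 (-1.10 to -0.36, edgeR adjusted p = 0.0856) and Sqle, squalene epoxidase, by -0.49 (-0.75 to -0.22, adjusted p = 0.104). Circadian clock genes had 0 of 19 called by edgeR and 5 higher by DESeq2. At an unadjusted p under 0.05, 10 were higher and 1 lower, and the median was 0.33 (0.26 to 0.38 with 1 library left out). Against control both drugs had a negative median, -0.22 with imeglimin (4 called higher, 5 lower) and -0.46 with metformin (2 higher, 6 lower). Per1 and Per2, repressors of the clock, each differed between the drugs by 0.75 at an edgeR adjusted p of 0.131 and 0.0627. Gut hormones had 0 of 15 called by edgeR and 3 higher by DESeq2, with 4 higher and 0 lower at an unadjusted p under 0.05. Pyy (peptide YY) differed by 0.48 (0.21 to 0.75, adjusted p = 0.109) and Gcg (proglucagon) by 0.14 (-0.19 to 0.47, adjusted p = 0.674). Transporters of organic cations and thiamine had 0 of 9 called by edgeR or DESeq2, with 2 higher and 0 lower at an unadjusted p under 0.05. Among them Slc47a1, which carries metformin, differed by 0.58 (0.031 to 1.14, adjusted p = 0.282).

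For all 31 proteasome genes, 1 of several lists of which this was true, the 95% bounds stayed under 1 log2 unit in size in the fit of 9 libraries. In that list 0 genes were called by edgeR or DESeq2 and 0 had an unadjusted p under 0.05, and the median was 0.080 (0.0058 without imeglimin 2 to 0.16 without imeglimin 1). Genes of MHC class II presentation had 0 of 11 called by either tool, 0 at an unadjusted p under 0.05 and a median of 0.064 (-0.057 without metformin 2 to 0.086 without imeglimin 2). A p that misses the threshold does not show that the drugs act alike.

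**Figure D4:**
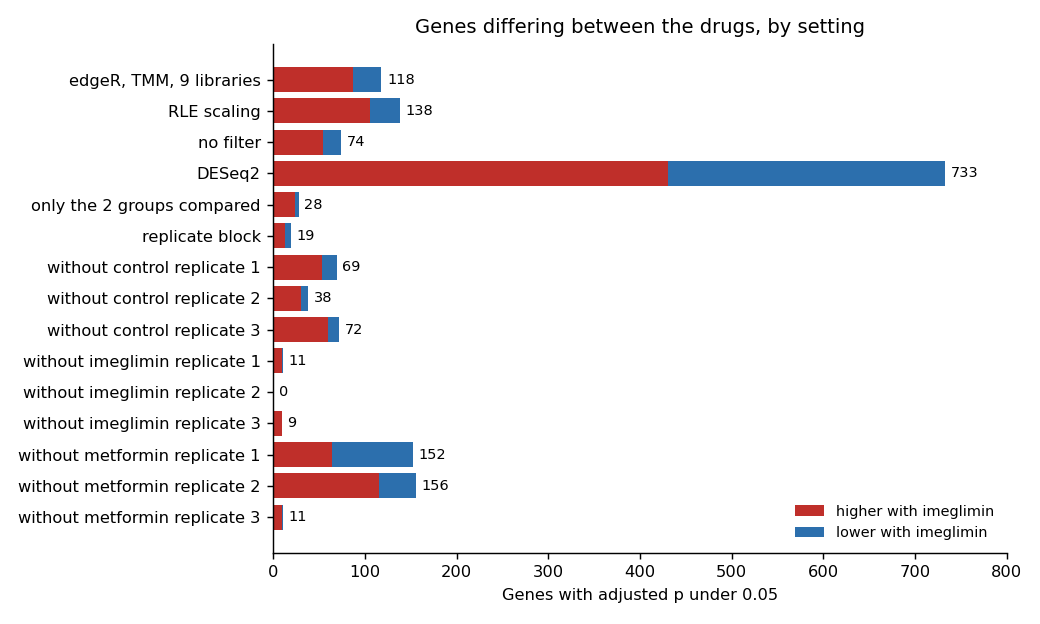
Number of genes with an adjusted p under 0.05 between imeglimin and metformin, split by direction, for the edgeR fit of 9 libraries and each other setting. The count runs from 0 without imeglimin 2 to 733 with DESeq2, around the 118 of the first bar.

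After 4 weeks of drinking water the order of the drugs was turned around for Gdf15 and 8 other acute genes. In those separate libraries 287 of 19369 genes (1.48%) differed between imeglimin and metformin. Of the 118 acute genes, 9 passed there with the opposite sign and 1 with the same sign. Gdf15 was at 10.6, 5.41 and 11.9 CPM with imeglimin and at 19.9, 22 and 21.1 CPM with metformin in chronic colon, against 5.88 to 7.38 CPM in control. Here every metformin library was above every imeglimin library, a difference of -1.18 ± 0.26 (edgeR adjusted p = 0.0362). Mt1 turned in the same way, at 130, 110 and 147 CPM with imeglimin and 201, 207 and 221 CPM with metformin (-0.70 ± 0.13, adjusted p = 0.0224). Mt2 (-1.0), Fgf11 (-0.97), Acot2 (-1.15), Tnnt2 (-1.16) and Mad2l1bp, a regulator of the mitotic checkpoint (-0.43), passed with the opposite sign too, as did the uncharacterised Gm39490 (-1.58) and 9930012K11Rik (-1.13). In the blocked fit Mt2, Acot2, Mad2l1bp, Gm39490 and 9930012K11Rik lost this chronic call (adjusted p 0.0776, 0.0608, 0.0892, 0.084 and 0.0537). None of the 9 chronic calls held without chronic imeglimin 1 (0.058 to 0.101), imeglimin 2 (0.0885 to 0.23) or metformin 3 (0.0875 to 0.163). Without imeglimin 3, metformin 1 and metformin 2, 6, 5 and 5 held. Of the chronic drug libraries, only imeglimin 3 could be left out with the chronic call of Gdf15 kept. In a fit of the chronic libraries alone, chosen after the data were seen, Mt1 kept its call (edgeR adjusted p = 0.0335). The other 8 lost it, with an adjusted p from just above 0.05 for Fgf11 through 0.0603 for Gdf15 to 0.118 for Gm39490.

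The change of the drug difference between acute and chronic colon was tested as an interaction over 18 libraries, and 733 of 19369 genes (3.78%) passed, 499 with a larger and 234 with a smaller imeglimin minus metformin difference in acute colon. For Gdf15 the difference was 3.21 ± 0.37 larger in acute colon (edgeR adjusted p = 0.00129), and it stayed at or below an adjusted p of 0.00588 with any 1 of the 12 drug libraries left out. Mt1 changed by 1.64 ± 0.19 (adjusted p = 0.00129), Fgf11 by 2.08 ± 0.25 (adjusted p = 0.00132), Aoc2 by 2.08 ± 0.27 and Dclre1a, a DNA crosslink repair nuclease, by 1.89 ± 0.25 (both 0.00272). Areg changed by 2.32 ± 0.36 (adjusted p = 0.00326), with chronic values of 20.4, 15.2 and 29.2 CPM for imeglimin and 51.7, 38.4 and 37.5 CPM for metformin (-0.98, adjusted p = 0.0666). Nox1 changed by -2.33 ± 0.40 (adjusted p = 0.00524). All of these passed in the blocked fit as well. The acute libraries enter both this test and the choice of the genes, and the exposures differ in dose, way of dosing and duration.

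Mx1 and Acta1 were not among these. Mx1 was at 4.5, 5.01 and 11 CPM with imeglimin and 6.7, 5.06 and 8.93 CPM with metformin in chronic colon, an overlap with a difference of -0.014 (-0.67 to 0.65), and its interaction of 1.48 had an edgeR adjusted p of 0.0672. Acta1 was the 1 gene with the same sign at both exposures: in chronic colon it was at 10.2, 9.03 and 5.57 CPM with imeglimin and at 73.6, 104 and 84.4 CPM with metformin, against 4.61 to 6.22 CPM in control. That chronic difference of -3.40 ± 0.43 (adjusted p = 0.0014) held in the blocked fit (0.01) and without any single library (at most 0.0155). Its interaction, 0.99, did not pass (adjusted p = 0.329).

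**Figure D5:**
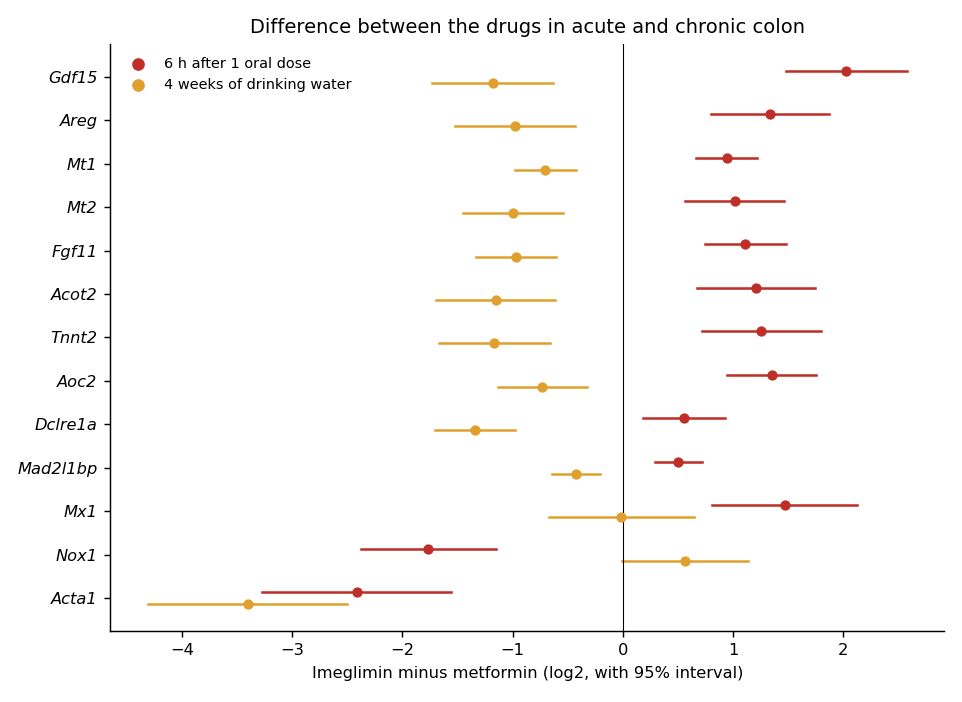
Log2 difference, imeglimin minus metformin, with its 95% interval, for 13 genes at 6 h after 1 oral dose (red) and after 4 weeks of drinking water (orange), both from the fit of 18 libraries. Gdf15, Areg, Mt1, Mt2, Fgf11, Acot2, Tnnt2, Aoc2, Dclre1a and Mad2l1bp lie right of 0 in acute and left of 0 in chronic colon, Nox1 left of 0 in acute colon, Mx1 right of 0 in acute colon and at 0 in chronic colon, and Acta1 left of 0 in both.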

How the data were processed

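The authors deposited raw read counts as whole numbers for 45777 gene symbols, with 1 table for the 9 acute and 1 for the 9 chronic colon libraries (0 sample columns unused). Per the labels' protocols, RNA came from RNeasy Mini columns and the library kit was TruSeq Stranded mRNA. Per the submitters' processing notes, FastQC, Trimmomatic, HISAT2 and StringTie were used with the builds mm10 and GRCm39, whose roles are not given. Nothing used here states the strand setting of counting, so overlapping or near-identical genes are uncertain.

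CPM are counts scaled by library total and TMM factor. Tests were edgeR 4.0.16 quasi-likelihood F tests in R 4.3.3 (filterByExpr by group, 1 fit of 9 acute libraries, all genes adjusted together by Benjamini-Hochberg, called under 0.05). SE is the log2 difference over the root of F, and intervals are 95%. The interaction used 18 libraries and 45751 shared symbols (26 chronic symbols had turned into dates). Code was tested on simulated data. Replicates differed by more than sampling noise (chi-square per gene 13.2 to 51.7). Alternatives were RLE scaling, no filter, DESeq2 1.42.0, fewer groups, the batch block and each library left out. A fit of the chronic table alone was added after seeing the data.

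In the labels the batch tag is the replicate number, and by it the numbers pair the libraries. Deviations from the group means correlated by -0.0056 on average between libraries of one number and by 0.0027 between other numbers, and 1 of 9 pairs of one number lay over 0.1. Deviations within a group sum to 0, so the first average all but fixes the second, which is no separate yardstick.

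The comparison, the 51 gene lists, the naming rule and the settings were chosen with earlier results of these data known. The rule took called genes at 5 CPM or more in a drug group, with groups apart and no predicted-model symbol (the 20 largest higher, the 12 largest lower), the 2 smallest p per list, a fixed set, and the 5 smallest interaction p. Outside it, and chosen after their values were seen, are Actn4, Cobl, Egr1, Fos, Gramd1b, Acad9, Hspa1a, Hspa8, Ifnlr1, Mt2, Noxa1, Per1, Sqle, Trib1, Upp1, Ighv14-2, Mad2l1bp, Gm39490 and 9930012K11Rik, the chronic values of Areg, Mx1 and Nox1, and the metal response motif. Some genes are not reported here.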

Additional observations from a re-analysis of the deposited data

Results flagged for a closer look

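The difference between imeglimin and metformin was not the same after 1 oral dose and after 4 weeks of drinking water for 79 of the 118 acute genes, by the test of that change itself over 18 libraries (edgeR adjusted p under 0.05). Over all genes, 733 of 19369 (3.78%) passed that test. The 118 were chosen for their acute difference, which is also one part of the change tested. A chronic difference near 0 can then be enough for a call, so the 2 shares are not alike. Values are given for 13 genes whose chronic difference or change is described above, of which Dclre1a is not among the 118. They are acute minus chronic, on the log2 scale, of the imeglimin minus metformin difference, and were 3.21 for Gdf15, 3.52 for Gm39490, 2.42 for Tnnt2, 2.36 for Acot2, 2.32 for Areg, 2.08 for Aoc2, 2.08 for Fgf11, 2.04 for 9930012K11Rik, 2.01 for Mt2, 1.89 for Dclre1a, 1.64 for Mt1 and 0.93 for Mad2l1bp. For Nox1 the value was -2.33. Acute and chronic tables were counted separately, and the exposures differ in dose, way of dosing and duration, so these cannot be told apart.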

How the results depend on the processing

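In place of 118 genes between the drugs, RLE scaling called 138, no filter 74, DESeq2 733 (431 higher, 302 lower), the 2 drug groups alone 28 and the replicate block 19, and leaving out 1 library gave 0 to 156. Without metformin 1, 64 were higher and 88 lower. In place of 733 genes for the acute against chronic change, RLE scaling called 700, no filter 468, DESeq2 1649, the 12 drug libraries alone 286 and the replicate block 399, and leaving out 1 library gave 241 to 1035 (568 positive and 467 negative without acute metformin 1). The cause was not tested.

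Sign changes were seen for values that had not passed the test. With 1 library left out, Slc2a1 between the drugs ran from -0.254 to 0.011 (the latter without imeglimin 1) and Trib3 from -0.016 (without imeglimin 2) to 0.988. Against control with imeglimin, Emp1 ran from -0.003496 (without imeglimin 3) to 0.223 and Clec2e from -0.302 to 0.0048 (without imeglimin 2). Mx1 between the drugs in chronic colon ran from -0.535 to 0.219 (without chronic metformin 3), with 0.214 and 0.169 without chronic imeglimin 1 and 2. All 118 genes kept their sign, which groups without overlap all but fix in advance. Each group holds 3 libraries, which limits the precision.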
